A study of Homo sapiens with 18 samples.

Results

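The comparison of A80 with ethanol in U87 cells takes in 6 of the 18 libraries of the series, 3 treated with A80 and 3 treated with ethanol, chosen by the treatment in their titles. U87 is an established human glioblastoma line, described in the labels as glial cells with no genetic modification. A80 is a rexinoid known here only by its code, given once at 100 nM for 24 h, and the control cells received ethanol, the vehicle, for the same 24 h. RNA depleted of ribosomal RNA was sequenced, and the other 12 libraries come from cells given bexarotene, a rexinoid used as a drug, or the coded rexinoids A34, A41 and A98, each also at 100 nM for 24 h.

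Rexinoids bind and activate retinoid X receptors (RXR). These nuclear receptors bind DNA as partners of other nuclear receptors, among them the retinoic acid receptors (RAR), which switch on genes that clear and store retinoids, and the liver X receptors (LXR), which switch on genes of cholesterol export and fatty acid desaturation. Some of these pairs can be activated by the RXR ligand alone, so the genes of several receptor systems may respond to a single rexinoid.

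Levels are given as scaled TPM, the deposited TPM (a length-corrected share of all transcripts) divided by a library factor that brings the typical gene to the same level in all 18 libraries, and changes as differences in log2(scaled TPM + 1), where the added 1 shrinks changes of weakly expressed genes. The 3 A80 libraries rested on 1.31, 3.26 and 3.89 gigabases of aligned sequence and the 3 ethanol libraries on 1.81, 2.15 and 3.33 gigabases. Ribosomal RNA took 0.529% to 0.846% of TPM in the A80 libraries, against 0.352%, 35.5% and 4.36% in ethanol libraries 1, 2 and 3. Across genes, Pearson's r between libraries lay between 0.967 and 0.980 within A80 and between 0.966 and 0.976 within ethanol. Of the glial markers, CLU, GJA1 and SLC1A3 were expressed, at 179 to 192, 67.3 to 72.1 and 17.4 to 21.6 scaled TPM with A80, while S100B was listed at 0 in all 6 libraries and the astrocyte filament gene GFAP did not exceed 1.16. The summed markers of astrocytes, oligodendrocytes, neurons, endothelial cells, leukocytes and epithelium each overlapped between the A80 and ethanol libraries. Whether the 3 libraries of a group are separate cultures is not stated. The p-values of limma thus reflect only the spread among libraries within the 6 groups of the series, possibly technical. In bulk RNA fewer cells of a kind and less RNA per cell cannot be told apart.

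A80 raised 8 genes and lowered 0 of the 18269 genes tested (limma, Benjamini-Hochberg adjusted p under 0.05). These are 0.0438% of genes higher and 0% lower. At an unadjusted p under 0.05, limma found 997 genes higher (5.46%) and 726 lower (3.97%). The split was 319 higher and 118 lower on TPM without the library factor. On TPM recomputed without ribosomal RNA it turned to 377 higher and 1811 lower, and the median of all genes was -0.122, against -0.004. The 3 A80 libraries all lay above the 3 ethanol libraries for 8.6% of genes and all below for 7.78%. By role, the 8 genes were CYP26B1 and DHRS3, which lower the supply of active retinoid, ABCA1 and SCD, which export cholesterol and desaturate fatty acids, the secretory kinase gene FAM20C, the fatty acid oxidation enzyme gene ECH1, the transcriptional inhibitor gene ID1 and the non-coding RNA LINC00339. For each of the 8, the exact two-sided permutation test of 3 libraries against 3 gave p = 0.10, the smallest it can give. The counts depended on the fit. With the library number of the titles as a further term, 114 genes were higher and 3 lower. With that of the file names they were 51 and 0. The main fit did not take these numbers as pairs. In the fit by group alone, the count of genes higher was 2 without A80 library 1. It was 3 without ethanol library 2 or 3, and it was 5 without A80 library 2 or ethanol library 1. Omitting the 3 libraries of the series in which ribosomal RNA took at least 35.5% of TPM also left 2 (DHRS3 and FAM20C), and the count was 0 in the fit to the 6 A80 and ethanol libraries alone or on TPM without the library factor.

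**Figure D1:**
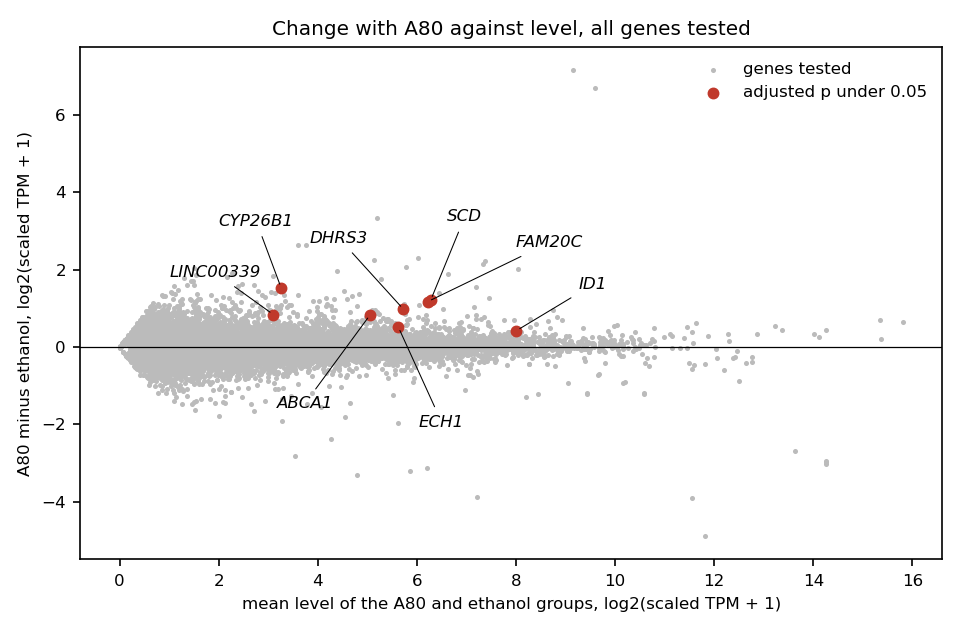
Difference between A80 and ethanol in log2(scaled TPM + 1) (vertical axis) against the mean level of both groups (horizontal axis), 1 point per gene tested, with the 8 genes past the threshold in red. All 8 lie above 0, and 29 genes had a larger positive difference than CYP26B1 without passing the threshold.

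Of the 8 genes, the retinoid enzyme gene CYP26B1 had the largest change and DHRS3 the smallest adjusted p. CYP26B1, the cytochrome P450 that hydroxylates retinoic acid for removal, lies on GRCh38 at chr2:72129238-72148038 on the minus strand. Its level was 16.4, 11.7 and 11.6 scaled TPM in the A80 libraries, against 4.86, 3.01 and 3.97 in the ethanol libraries. Every A80 library was above every ethanol library, and A80 library 1 was the highest. CYP26B1 rose by 1.52 (95% interval 1.11 to 1.94, adjusted p = 0.00563), and the adjusted p was 0.0513 without A80 library 1 and 0.053 without ethanol library 2. DHRS3, a short-chain reductase that turns retinal back into retinol, lies at chr1:12567910-12618210 on the minus strand. It stood at 74.5, 68.7 and 64.4 scaled TPM with A80, against 29.9, 37.0 and 37.6 with ethanol, with no overlap between the groups. DHRS3 rose by 0.98 (95% interval 0.79 to 1.16, adjusted p = 0.000133) and passed under all 6 omissions of 1 library.

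Of 18 RAR target genes listed, 17 had an identifier in the files, 11 were tested, and 2 passed the threshold upward and 0 downward. An unadjusted p under 0.05 upward was reached by 4, against 5.46% of all genes tested. All gene lists here were chosen with earlier results of these data known, so such shares do not test a list. The median difference of the 11 was 0.36, against -0.004 over all genes tested. The 2 further members with a low unadjusted p were TGM2, a transglutaminase, at 227, 202 and 202 scaled TPM with A80 against 167, 159 and 165 with ethanol, and STRA6, a membrane receptor that takes up retinol, at 1.78, 1.43 and 1.58 with A80 against 0.871, 0.313 and 0.739 with ethanol. Both had groups that did not overlap and neither passed in limma (adjusted p = 0.235 for TGM2 and 0.372 for STRA6). RARB, itself an RAR target in many cells, stood at 9.16, 5.67 and 5.09 with A80 against 5.11, 5.10 and 5.06 with ethanol, with A80 library 3 inside the ethanol range. CYP26A1, the paralogue of CYP26B1 best known as an RAR target, was listed at 0 in all 3 A80 libraries and did not reach 0.01 in the ethanol libraries. Among 9 tested genes of retinoid uptake and synthesis, 0 passed and the median difference was 0.07. ALDH1A3, which makes retinoic acid from retinal, stood at 324, 322 and 334 with A80 against 280, 321 and 333 with ethanol, and the retinol dehydrogenase gene RDH11, the 1 member with an unadjusted p under 0.05, at 79.0, 81.6 and 64.3 with A80 against 62.8, 65.1 and 59.6 with ethanol.

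ABCA1 and SCD were the LXR target genes that rose. ABCA1, the membrane pump that loads cholesterol onto apolipoprotein A-I, lies at chr9:104781006-104928155 on the minus strand. It was at 47.5, 41.1 and 36.6 scaled TPM with A80, against 21.98, 24.2 and 22.4 with ethanol, and the groups did not overlap. ABCA1 rose by 0.83 (95% interval 0.58 to 1.09, adjusted p = 0.0131). It passed without A80 library 3 but not without any other 1 library, where the adjusted p was 0.0564 to 0.125. An antisense transcript across its start, AL359182.1, averaged 2.24 with A80 and 1.23 with ethanol, and reads of the 2 genes cannot be told apart there if strand was not used. SCD, the stearoyl-CoA desaturase that makes oleate, lies at chr10:100347233-100364826 on the plus strand. It was at 130, 105 and 87.6 scaled TPM with A80, against 49.6, 47.3 and 39.8 with ethanol, so that the lowest A80 library was well above the highest ethanol library. SCD rose by 1.21 (95% interval 0.87 to 1.54, adjusted p = 0.00563), and the adjusted p was 0.0513 without A80 library 1 and 0.0573 without ethanol library 3.

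Of 17 LXR target genes listed, 11 were tested, and 2 passed upward and 0 downward. An unadjusted p under 0.05 upward was reached by 5, against 5.46% of all genes tested, and the median difference was 0.17. The median was 0.276 without A80 library 1, 0.285 without A80 library 3 and 0.342 without ethanol library 3. The other 3 of those 5 were SREBF1, the transcription factor of fatty acid synthesis, at 14.8, 11.5 and 11.2 with A80 against 6.43, 7.44 and 6.62 with ethanol, the long non-coding RNA OLMALINC at 5.41, 5.11 and 3.90 with A80 against 1.40, 2.47 and 2.20 with ethanol, and PLTP, the phospholipid transfer protein, at 100, 89.3 and 78.6 with A80 against 72.7, 67.2 and 67.2 with ethanol. In none of the 3 did the groups overlap, and their adjusted p in limma was 0.272, 0.097 and 0.49. ABCG1 and MYLIP, other LXR targets, stayed below 1 scaled TPM in all 6 libraries, and so did APOE. SCD was the 1 gene of fatty acid synthesis and desaturation to pass of 14 tested, whose median difference was -0.002. Fatty acid synthase (FASN) stood at 18.6, 19.6 and 23.8 with A80 against 27.2, 21.7 and 22.04 with ethanol, and ACLY, ACACA and ELOVL6 differed by -0.013 to -0.007. Of 24 cholesterol synthesis and uptake genes tested, 0 passed, with a median difference of 0.09. The regulator SREBF2 was at 20.96, 19.4 and 21.3 with A80 against 17.7, 14.8 and 16.5 with ethanol (adjusted p = 0.244).

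The start regions of these 4 genes are shown because RXR and its partners bind repeats of a half-site, written AGGTCA. Each run covers 250 bases before to 50 bases after a transcription start (RefSeq, GRCh38.p14), read 5′ to 3′ on the gene's strand, and capitals mark every match to a searched motif. The regions are chr2:72147813-72148112 for CYP26B1, chr1:12596564-12596863 for DHRS3, chr9:104928106-104928405 for ABCA1 and chr10:100346983-100347282 for SCD. The DHRS3 region shown belongs to the most downstream of its 3 annotated starts, the only start of these with an AGGTCA match. Its region at the 5′ end of the gene, chr1:12618161-12618460, has no such match and is not shown.
CYP26B1: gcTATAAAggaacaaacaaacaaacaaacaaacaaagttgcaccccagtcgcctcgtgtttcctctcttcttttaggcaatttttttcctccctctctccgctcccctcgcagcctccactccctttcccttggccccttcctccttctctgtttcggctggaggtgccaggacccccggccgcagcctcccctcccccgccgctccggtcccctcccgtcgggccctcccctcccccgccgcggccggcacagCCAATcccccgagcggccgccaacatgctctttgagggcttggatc
DHRS3: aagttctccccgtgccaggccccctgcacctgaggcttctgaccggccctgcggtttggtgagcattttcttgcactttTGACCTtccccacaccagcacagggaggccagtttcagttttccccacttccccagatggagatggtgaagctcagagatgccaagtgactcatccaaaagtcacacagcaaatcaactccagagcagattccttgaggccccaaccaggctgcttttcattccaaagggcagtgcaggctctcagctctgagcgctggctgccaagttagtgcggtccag
ABCA1: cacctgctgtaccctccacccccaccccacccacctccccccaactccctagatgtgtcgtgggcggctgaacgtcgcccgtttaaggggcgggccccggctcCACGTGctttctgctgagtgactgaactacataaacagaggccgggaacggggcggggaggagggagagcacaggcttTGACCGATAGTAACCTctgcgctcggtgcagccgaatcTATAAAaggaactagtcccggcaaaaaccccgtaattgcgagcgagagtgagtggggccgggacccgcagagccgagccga
SCD: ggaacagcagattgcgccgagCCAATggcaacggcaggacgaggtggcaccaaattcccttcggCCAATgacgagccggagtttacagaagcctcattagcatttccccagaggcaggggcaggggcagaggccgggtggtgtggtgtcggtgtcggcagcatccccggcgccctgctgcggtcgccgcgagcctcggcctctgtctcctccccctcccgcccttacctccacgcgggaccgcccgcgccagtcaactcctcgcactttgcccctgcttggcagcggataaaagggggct

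The motifs searched for, all on both strands, were the single half-site AGGTCA, the E-box CACGTG, the CCAAT box, the TATA motif TATAAA, and direct repeats of 2 half-sites with spacers of 1, 4 or 5 bases. In the first form of the repeat each half-site was AGGTCA or its variant GGGTCA, or the variant AGTTCA, or the variant GGTTCA, and in the second it could differ from AGGTCA by 1 base, so either form can overlap a single AGGTCA match. The second form was searched after the first had been seen to find nothing. The first form was in 0 of the 10 windows that the table holds for 7 of the 8 genes, and in 0.13%, 0.09% and 0.09% of all 35116 windows for spacers 1, 4 and 5. The second form with spacer 4 was in the ABCA1 window, ending 53 bases before the start, and in 1.38% of all windows. AGGTCA was in the DHRS3 window shown and in neither of its other windows (13.83% of all windows), CACGTG in that of ABCA1 (7.26%), TATAAA in those of CYP26B1, ABCA1 and ID1 (11.53%) and CCAAT in those of CYP26B1, SCD, FAM20C, ID1 and LINC00339 (34.61%). These matches describe the letters of the windows and were not tested as binding sites.

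FAM20C, the kinase that phosphorylates secreted proteins in the Golgi, lies at chr7:192571-260772 on the plus strand. It stood at 115, 87.5 and 104 scaled TPM in the A80 libraries, against 42.2, 46.1 and 45.4 in the ethanol libraries. The groups were far apart, and FAM20C rose by 1.17 (95% interval 0.89 to 1.45, adjusted p = 0.00154), also past the threshold with any 1 of the 6 libraries left out. Its paralogue FAM20B, a xylose kinase of proteoglycan assembly, was at 21.4, 21.3 and 22.2 with A80 against 20.7, 20.3 and 21.5 with ethanol. Of the 5 tested genes of secretory pathway kinases and their relatives FAM20C was the 1 that passed. DIPK2A had the next lowest p in limma, with 30.2, 16.0 and 12.4 scaled TPM with A80 against 10.6, 10.3 and 10.2 with ethanol (adjusted p = 0.513), and its A80 library 1 stood apart from the other two.

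ECH1, an enzyme that shifts double bonds in unsaturated fatty acids during their oxidation, lies at chr19:38815422-38831841 on the minus strand. It was at 61.0, 58.1 and 52.2 scaled TPM with A80, against 39.5, 36.7 and 41.8 with ethanol, with no overlap. ECH1 rose by 0.52 (95% interval 0.36 to 0.69, adjusted p = 0.0186), and passed without A80 library 3 but not without any other 1 library (adjusted p = 0.0573 to 0.175). It was the 1 gene to pass among 24 tested genes of mitochondrial and peroxisomal fatty acid oxidation, whose median difference was 0.03. ACADVL, the first enzyme of long-chain oxidation, stood at 192, 175 and 218 with A80 against 167, 151 and 162 with ethanol (adjusted p = 0.438). CPT1A, which admits fatty acids to mitochondria, stood at 38.8, 41.9 and 52.1 with A80 against 42.5, 49.3 and 53.8 with ethanol.

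ID1, an inhibitor of basic helix-loop-helix transcription factors and a target of BMP signalling, lies at chr20:31605283-31606515 on the plus strand. It was at 304, 279 and 295 scaled TPM with A80, against 228, 210 and 219 with ethanol, the highest level and the smallest change of the 8 genes. ID1 rose by 0.42 (95% interval 0.28 to 0.56, adjusted p = 0.0186), and its adjusted p was 0.0536 to 0.175 whichever 1 library was left out. Of 22 tested genes of the ID family and of BMP and TGF-beta signalling, ID1 was the 1 that passed. ID2 and ID3 overlapped between groups, at 32.9, 20.95 and 16.8 with A80 against 15.3, 21.3 and 19.6 with ethanol for ID2 and at 33.5, 36.1 and 51.0 with A80 against 40.9, 32.8 and 40.3 with ethanol for ID3. LTBP3, which holds latent TGF-beta in the matrix, was at 98.3, 80.9 and 95.7 with A80 against 63.3, 65.8 and 59.0 with ethanol (adjusted p = 0.248). CCN2, a matricellular growth factor, was at 13.8, 15.5 and 12.5 with A80 against 20.6, 17.9 and 18.2 with ethanol (adjusted p = 0.261).

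LINC00339, a long non-coding RNA, lies at chr1:22024558-22031223 on the plus strand, where it overlaps CDC42 and CDC42-AS1. It was at 10.8, 8.76 and 10.5 scaled TPM with A80, against 5.61, 5.07 and 4.78 with ethanol. LINC00339 rose by 0.84 (95% interval 0.59 to 1.08, adjusted p = 0.00845), with an adjusted p of 0.0547 to 0.09 without A80 library 1 or 3 or ethanol library 2 or 3. CDC42, on the same strand, averaged 79.5 ± 29.9 with A80 and 70.2 ± 19.2 with ethanol (SD, n = 3 each), and CDC42-AS1, on the other strand, 0.458 ± 0.043 with A80 and 1.28 ± 0.59 with ethanol. How reads on each strand were assigned is not stated, so the share of reads that belongs to each of the 3 genes is uncertain.

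**Figure D2:**
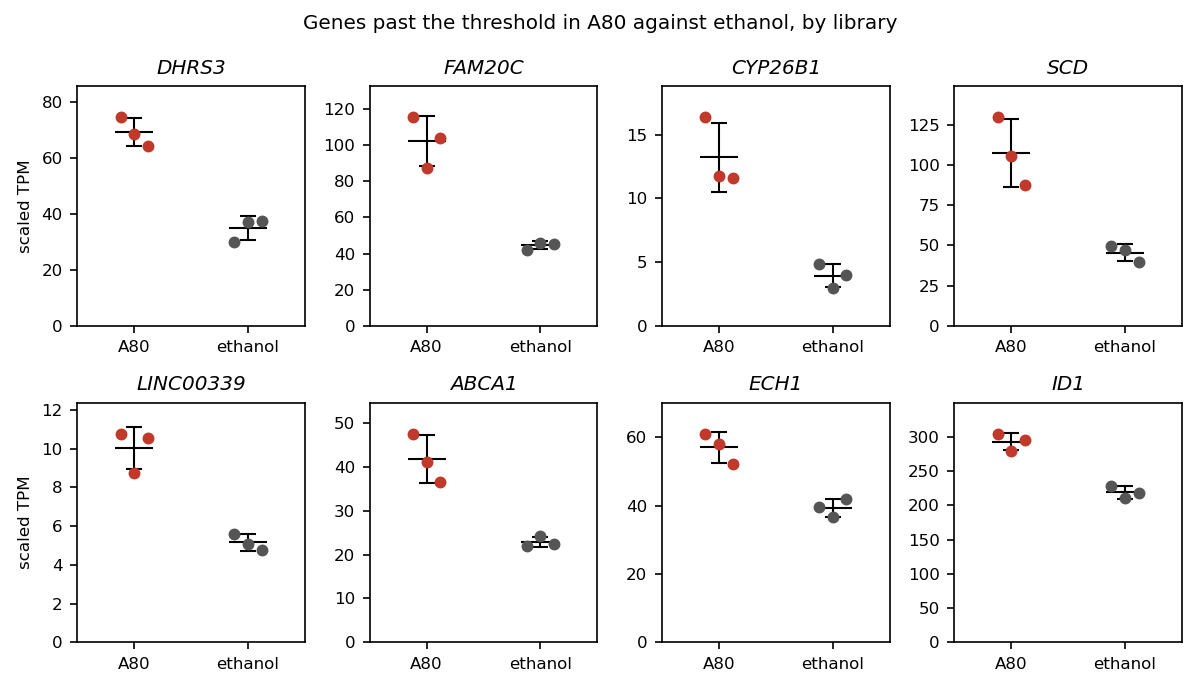
Scaled TPM (vertical axes, from 0) of the 8 genes past the threshold in the 3 A80 libraries (red, left) and the 3 ethanol libraries (grey, right). Points are libraries, and the horizontal bar and whiskers are the mean and SD; in each of the 8 panels the lowest A80 library lies above the highest ethanol library.

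Within 100000 bases of the 8 genes, 34 other genes were tested and 0 passed. At an unadjusted p under 0.05, 2 were higher and 2 lower, shares near the 5.46% and 3.97% of all genes tested. The 2 higher were OLMALINC, which begins 8273 bases beyond the end of SCD on the same strand and averaged 4.81 ± 0.80 with A80 and 2.02 ± 0.56 with ethanol, and AC254633.1, a transcript 690 bases upstream of DHRS3 on its strand, at 5.07 ± 1.21 with A80 and 2.14 ± 0.11 with ethanol (SD, n = 3 each). The 2 lower were CDC42-AS1, above, and AL110115.1 near ID1, at 0.159 ± 0.142 with A80 and 1.07 ± 0.65 with ethanol. Of the protein-coding neighbours, EXOC6B beside CYP26B1 differed by 0.051 (95% interval -0.182 to 0.284), HNRNPL beside ECH1 by -0.019 (-0.255 to 0.217) and BCL2L1 near ID1 by 0.155 (-0.013 to 0.323). The intervals of HSPG2, -1.004 to 0.63, and CDC42, -0.716 to 1.02, were wide.

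The receptors through which a rexinoid could act were present at low to moderate level, and 0 of 24 tested receptors and cofactors passed the threshold. RXRA was at 4.76, 5.39 and 7.46 scaled TPM with A80 against 5.84, 5.10 and 6.25 with ethanol, and RXRB at 9.69, 9.21 and 10.6 with A80 against 9.59, 7.42 and 9.51 with ethanol. RXRG was listed at 0 in 5 of the 6 libraries. Of the RAR genes, RARG was at 23.4, 29.04 and 29.1 with A80 against 27.4, 26.2 and 27.3 with ethanol, and RARA at 26.01, 16.8 and 17.5 with A80 against 15.2, 13.7 and 15.1 with ethanol, with groups that did not overlap (adjusted p = 0.535). The LXR gene NR1H2 was at 35.8, 46.2 and 51.3 with A80 against 37.6, 34.4 and 41.6 with ethanol, and NR1H3, itself an LXR target, at 4.93, 5.28 and 6.13 with A80 against 4.86, 7.12 and 6.17 with ethanol. The coactivator gene NCOA1 was at 6.22, 7.98 and 7.10 with A80 against 9.31, 9.38 and 8.12 with ethanol (adjusted p = 0.398), and the corepressor gene NCOR1 at 28.7, 34.4 and 33.9 with A80 against 37.5, 38.5 and 39.2 with ethanol (adjusted p = 0.447). The A80 and ethanol libraries of NCOA1 and of NCOR1 did not overlap, and both had an unadjusted p under 0.05.

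Other receptor systems gave 0 calls. Among 4 tested vitamin D and thyroid receptor targets, the anticoagulant receptor gene THBD was at 3.78, 5.09 and 3.73 with A80 against 2.30, 2.47 and 2.18 with ethanol (adjusted p = 0.364). The 13 tested PPAR targets had a median difference of -0.03, which became 0.129 without A80 library 1, 0.054 without ethanol library 1 and 0.044 without ethanol library 2. Their mean relative to ethanol was 0.695, 0.509 and 0.407 in A80 libraries 1, 2 and 3, and 0.334, -0.11 and -0.224 in ethanol libraries 1, 2 and 3. These means include FABP7, listed at 15, 16.8 and 19.7 scaled TPM with A80 and at 23.7, 0 and 0 with ethanol. The values of 0 can be failed estimates, so no change is read from the means. Of the PPAR targets, ANGPTL4, a secreted lipase inhibitor that hypoxia also induces, was at 206, 85.5 and 40.5 with A80 against 22.7, 17.7 and 12.9 with ethanol (adjusted p = 0.265). HILPDA, a lipid droplet protein also induced by hypoxia, was at 207, 49.8 and 22.6 with A80 against 16.7, 13.2 and 12.3 with ethanol (0.449). In both genes the A80 libraries differed several fold among themselves, and each was still above every ethanol library. PDK4, a PPAR target in many tissues, stayed at 0.828 to 1.72 with A80 and at 1.08 to 2.55 with ethanol.

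At the same dose and time, A80 was set against each of the 4 other rexinoids, with p-values adjusted over all genes and the 4 pairs together. Against A41, 11 genes passed (0.0602% of genes tested), and all 11 were lower with A80. Against A98 1 gene passed (0.00547%), and against bexarotene and A34 the share was 0% each (limma, with 1108 and 648 genes at an unadjusted p under 0.05). Against A98 and A41 those numbers were 738 and 1452. A p that misses the threshold does not show that compounds act alike, so the intervals are given.

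Of the 11 genes that separated A80 from A41, 3 were also among the 8 above. DHRS3, at 74.5, 68.7 and 64.4 scaled TPM with A80, stood at 159, 145 and 161 with A41, a difference of -1.16 (95% interval -1.34 to -0.97, adjusted p = 4.89e-05). CYP26B1, at 16.4, 11.7 and 11.6 with A80, stood at 67.5, 54.5 and 52.0 with A41, a difference of -2.06 (-2.48 to -1.64, adjusted p = 0.000798). ID1, at 304, 279 and 295 with A80, stood at 427, 374 and 423 with A41, a difference of -0.48 (-0.61 to -0.34, adjusted p = 0.0189). In all 3 the highest A80 library was below the lowest A41 library. The other 8 were not past the threshold with A80 against ethanol. PTGES, the prostaglandin E synthase, was at 48.1, 42.3 and 36.0 with A80, against 127, 153 and 105 with A41 and a mean of 28.7 with ethanol, and its difference from A41 was -1.58 (-1.91 to -1.24, adjusted p = 0.000977). STRA6 averaged 1.60 ± 0.18 with A80 and 7.98 ± 1.34 with A41 (SD, n = 3 each), a difference of -1.78. TGM2 averaged 210 ± 14 with A80 and 344 ± 21 with A41, a difference of -0.71, and the 2 genes shared an adjusted p of 0.0057.

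The remaining 5 genes lower with A80 than with A41 were NRIP1, a nuclear receptor corepressor that retinoic acid induces, SMAD3, a TGF-beta signal transducer, PTPRJ, a receptor tyrosine phosphatase, GALNT12, a starter enzyme of mucin-type O-glycosylation, and FCRLA, a B-cell Fc receptor relative. Their differences ran from -0.62 for NRIP1 to -1.08 for FCRLA, with adjusted p between 0.023 and 0.0379. DHRS3, CYP26B1 and PTGES passed whichever of the 6 A80 and A41 libraries was left out. STRA6 and TGM2 missed the threshold without A80 library 2 (both 0.0559), ID1 passed only without A41 library 2, NRIP1 and GALNT12 passed under none of the 6 omissions, and PTPRJ, SMAD3 and FCRLA passed under 2, 1 and 1. When the 3 libraries high in ribosomal RNA, 1 of them from A41, were omitted, 6 genes passed: DHRS3, CYP26B1, PTGES, STRA6, TGM2 and ID1. FAM20C, SCD and ABCA1 were also lower on average with A80 than with A41, by -0.66 (-0.93 to -0.38), -0.67 (-1.004 to -0.334) and -0.50 (-0.76 to -0.25), without passing (adjusted p = 0.237, 0.439 and 0.47). LINC00339 had a positive difference of 0.38 (0.14 to 0.63, adjusted p = 0.747) and ECH1 one of -0.09 (-0.26 to 0.08).

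**Figure D3:**
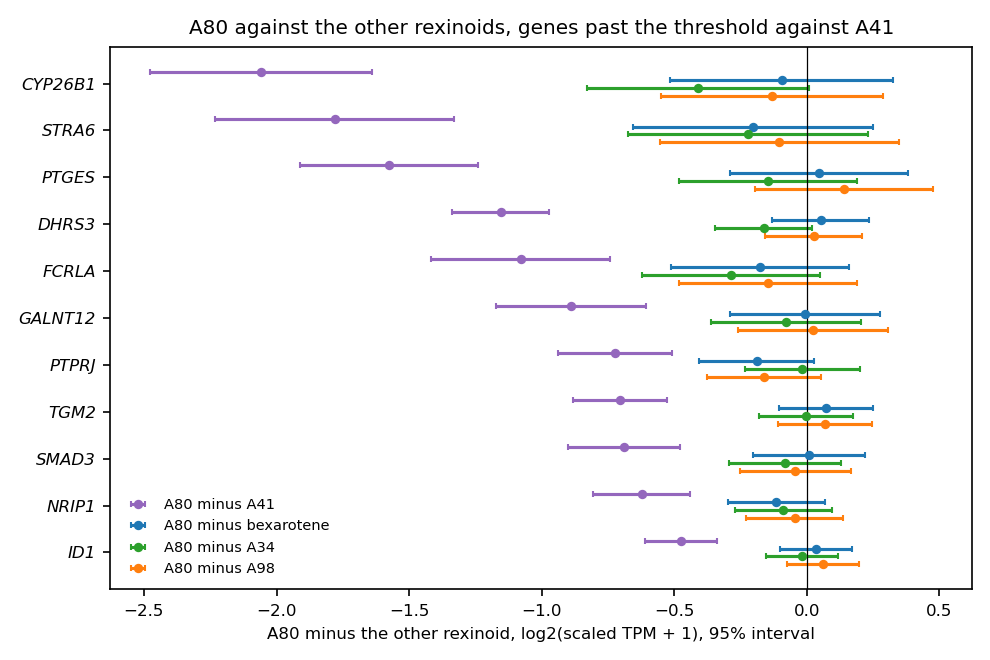
Difference of A80 from each other rexinoid in log2(scaled TPM + 1) (horizontal axis) with 95% intervals, for the 11 genes past the threshold against A41. The differences from A41 lie between -2.06 for CYP26B1 and -0.48 for ID1, and those from bexarotene, A34 and A98 lie between -0.41 and 0.14.

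Against bexarotene, the 8 genes that rose with A80 differed by -0.26 (ABCA1, 95% interval -0.51 to 0.00) to 0.23 (FAM20C, -0.05 to 0.51), and the adjusted p was 0.922 or more. Against A34 the LXR targets had the widest differences. ABCA1 averaged 41.7 ± 5.5 with A80 and 66.5 ± 12.1 with A34 (SD, n = 3 each), a difference of -0.65 (95% interval -0.91 to -0.40, adjusted p = 0.176), and SCD averaged 107.5 ± 21.1 with A80 and 176.5 ± 40.9 with A34, a difference of -0.70 (-1.04 to -0.37, adjusted p = 0.395). The A80 and A34 libraries of ABCA1 and of SCD did not overlap. Against A98, ABCA1 differed by -0.44 (-0.70 to -0.19, adjusted p = 0.63) and SCD by -0.37 (-0.71 to -0.04, adjusted p = 0.915), while CYP26B1 differed by -0.13 (-0.55 to 0.29) and DHRS3 by 0.03 (-0.16 to 0.21). The tables deposited for A98 are named A90, and the compound name here is that of the titles. The 1 gene past the threshold against A98 was SNORA70G, a small nucleolar RNA gene listed at 0 in the 3 A80 libraries and at 1.36, 1.89 and 1.36 scaled TPM with A98 (adjusted p = 0.0124). It was 0.660, 0.565 and 0.742 with ethanol, and small RNAs are measured poorly in sheared libraries.

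Set side by side against the ethanol libraries that all 5 rexinoids share, CYP26B1 differed by 1.52 with A80, 1.62 with bexarotene, 1.94 with A34, 3.58 with A41 and 1.66 with A98. DHRS3 differed by 0.98 with A80, 0.92 with bexarotene, 1.14 with A34, 2.13 with A41 and 0.95 with A98. For ABCA1 the values were 0.83 with A80, 1.09 with bexarotene, 1.49 with A34, 1.34 with A41 and 1.28 with A98. For SCD they were 1.21 with A80, 1.39 with bexarotene, 1.91 with A34, 1.88 with A41 and 1.58 with A98. A80 had the smallest value of the 5 for CYP26B1, ABCA1 and SCD, and its intervals overlapped those of bexarotene and A98 in each of the 3. All these intervals share the ethanol libraries, so their overlap does not measure a difference between compounds. The direct intervals of A80 minus A98 lay below 0 for ABCA1 (-0.70 to -0.19) and SCD (-0.71 to -0.04) and held 0 for CYP26B1 (-0.55 to 0.29).

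**Figure D4:**
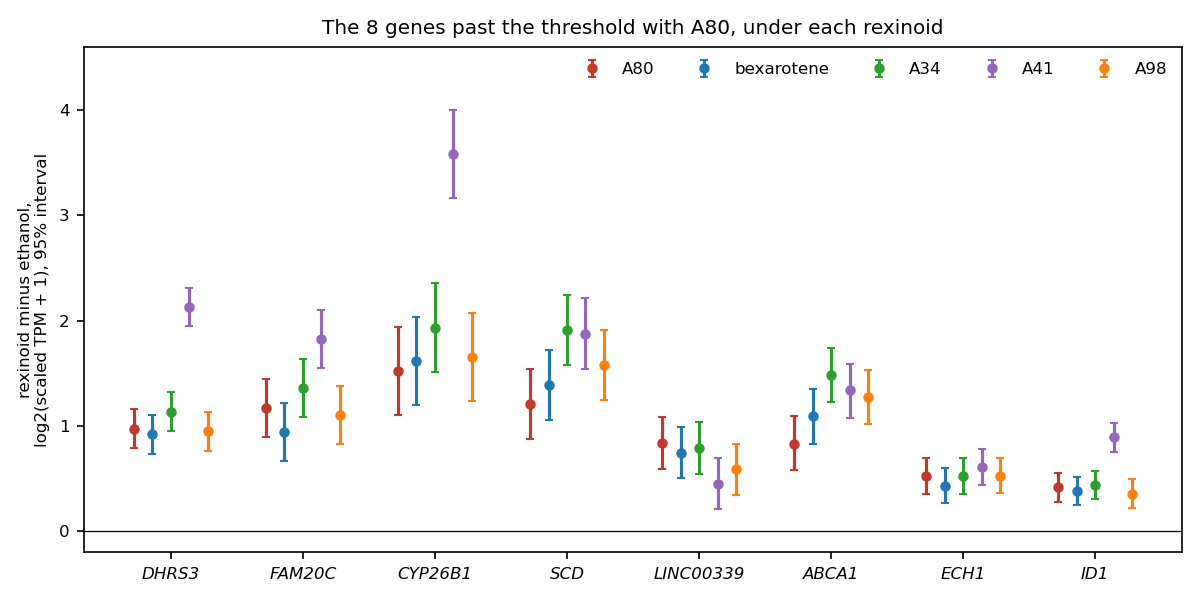
Difference of each rexinoid from ethanol in log2(scaled TPM + 1) (vertical axis) with 95% intervals, for the 8 genes past the threshold with A80; all 5 rexinoids share the same 3 ethanol libraries. A41 stands above the rest for DHRS3 at 2.13, CYP26B1 at 3.58 and ID1 at 0.90, and A80 is the lowest for ABCA1 at 0.83 and SCD at 1.21.

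Beyond the 8 genes, the hypoxia and glycolysis list had the largest median difference of the 23 pathway lists. Its members are genes that the oxygen-regulated factor HIF controls in many cells. Of its 23 genes tested, 0 passed the threshold, or 11 with the library number of the titles as a further term. In the fit by group alone, all 23 had a positive difference with a median of 0.71. An unadjusted p under 0.05 was reached by 22, against 5.46% of all genes tested upward. In 22 the 3 A80 libraries all lay above the 3 ethanol libraries, against 8.6% of all genes tested. NDRG1, a stress-induced gene, was at 770, 305 and 220 scaled TPM with A80, against 96.9, 104 and 75.8 with ethanol. VEGFA, the angiogenic factor, was at 763, 491 and 488 with A80 against 356, 314 and 321 with ethanol, and PFKFB4, a regulator of glycolysis, at 106, 59.5 and 51.9 with A80 against 33.4, 34.1 and 27.3 with ethanol. In each of these 3 genes A80 library 1 was the highest and the groups did not overlap, and the adjusted p in limma was 0.261 for NDRG1 and VEGFA and 0.256 for PFKFB4. On the log2 scale, the mean of the 23 genes, relative to the ethanol mean, was 1.42, 0.65 and 0.42 in A80 libraries 1, 2 and 3, and 0.14, 0.03 and -0.17 in ethanol libraries 1, 2 and 3.

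The library numbered 1 was the highest on this list in 6 of the 6 groups of the series, at 0.65 with bexarotene, 1.44 with A34, 0.76 with A41 and 0.76 with A98. Libraries 2 and 3 stood at 0.672 and 0.387 with A34, and at 0.538 and 0.373 with A98. They stood at 0.302 and 0.197 with bexarotene, and at 0.013 and 0.035 with A41. Higher values on this list were thus not particular to A80. Library 1 was also the highest in 6 of 6 groups on the PPAR, mesenchymal glioma and matrix protease lists. A80 library 1 had the smallest depth of the 18. Library 1 also had the smallest depth of its group with ethanol, A34 and A98, but the middle one with bexarotene and the largest with A41. Without A80 library 1, 6 of the 23 genes had an unadjusted p under 0.05 (3.28% of all genes tested did), and the median was 0.43. The number was 11 without ethanol library 3 (4.4% of all genes). On TPM without the library factor it was 10 (1.75% of all genes), and 12 on TPM recomputed without ribosomal RNA (2.06%). The medians there were 0.73 and 0.70 above that of all genes. The part of depth in these values was not tested.

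The stress and inflammatory lists had smaller median differences. Of 20 genes of the unfolded protein and ATF4 response, 0 passed, 11 had an unadjusted p under 0.05 upward, against 5.46% of all genes tested, and the median was 0.33. DDIT4, an inhibitor of mTORC1 that hypoxia and ATF4 both induce, was at 303, 209 and 145 scaled TPM with A80 against 69.0, 82.9 and 62.0 with ethanol (adjusted p = 0.165). The amino acid response genes ASNS and SESN2 were at 82.7, 67.1 and 55.4 with A80 against 40.3, 43.4 and 39.8 with ethanol for ASNS (0.235), and at 36.1, 30.2 and 25.3 with A80 against 18.8, 17.6 and 19.4 with ethanol for SESN2 (0.244). The chaperone genes HSPA5, HSP90B1 and CALR overlapped between the groups. The number was 8 without A80 library 1 (3.28% of all genes), 7 on TPM recomputed without ribosomal RNA (2.06%) and 2 on TPM without the library factor (1.75%). Of 18 genes of the NF-kB and inflammatory list, 0 passed and the median was 0.50. An unadjusted p under 0.05 upward was reached by 8, against 5.46% of all genes tested. On both lists library 1 was the highest of its group in 6 of 6 groups, as on the hypoxia list. ICAM1, an adhesion molecule, was at 36.6, 16.6 and 13.5 with A80 against 8.12, 9.57 and 7.57 with ethanol (adjusted p = 0.378), and IL1B at 683, 689 and 346 with A80 against 281, 273 and 284 with ethanol (0.438). The 8 became 2 without A80 library 1 (3.28% of all genes), 3 without A80 library 2 (5.49%) and 4 without ethanol library 2 (4.12%). They became 3 on TPM without the library factor (1.75%) and 4 on TPM recomputed without ribosomal RNA (2.06%).

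The 13 genes encoded in mitochondrial DNA stood out in 1 library. Their mean, relative to ethanol, was 0.19, -0.06 and -1.37 in A80 libraries 1, 2 and 3, against 0.04, -0.02 and -0.02 in ethanol libraries 1, 2 and 3. MT-CO1 was at 5380, 4450 and 2150 scaled TPM with A80, against 4630, 4330 and 4590 with ethanol, and MT-ATP6 at 5910, 4870 and 1500 with A80 against 5470, 5200 and 5180 with ethanol. A80 library 3 was the lowest of the 6 for both, and the other two A80 libraries were within or near the ethanol range. Of the 13 genes, 0 passed and 0 had an unadjusted p under 0.05. Their median of -0.41 became 0.09 without A80 library 3, with 9 of the 13 positive. Without A80 library 1 it was -0.71, with 12 of 13 at an unadjusted p under 0.05. Of all genes tested, 3.28% upward and 2.54% downward reached that p without this library.

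**Figure D5:**
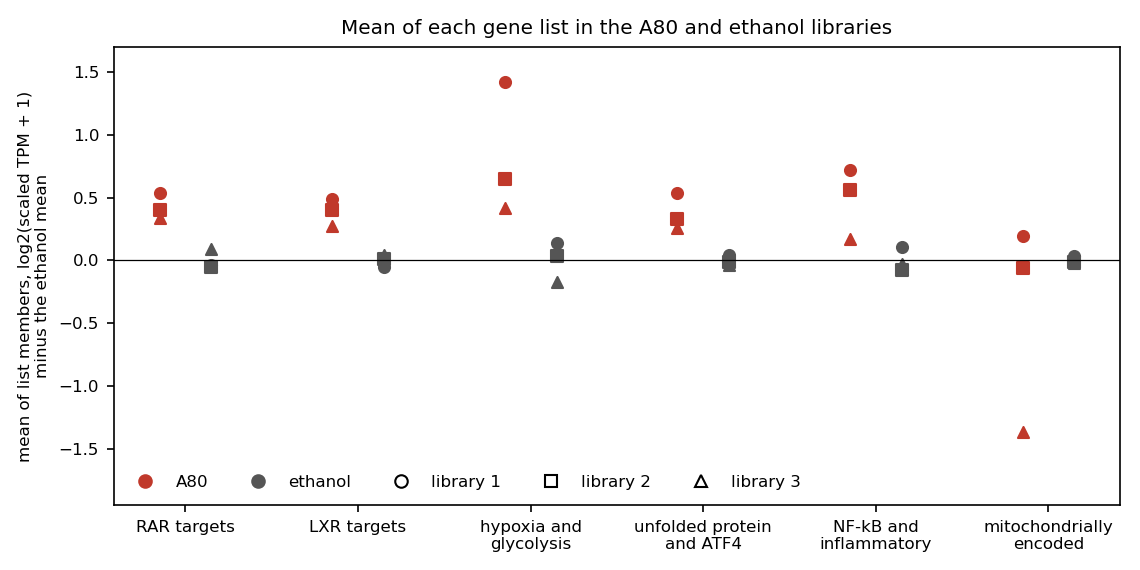
Mean over the tested members of 6 gene lists, as log2(scaled TPM + 1) minus the ethanol mean (vertical axis), in each A80 library (red, left of each pair) and ethanol library (grey, right), with a marker shape for each library number. The A80 libraries lie above the ethanol libraries for the RAR, LXR, hypoxia, unfolded protein and NF-kB lists, A80 library 1 reaches 1.42 on the hypoxia list, and A80 library 3 is at -1.37 on the mitochondrially encoded list.

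No gene passed downward. Nearest to the threshold was ADAMTS1, a secreted metalloprotease, at 29.2, 28.1 and 35.4 scaled TPM with A80 against 51.0, 42.5 and 44.3 with ethanol (difference -0.56, adjusted p = 0.097). HGF, hepatocyte growth factor, was at 5.46, 5.23 and 5.24 with A80 against 7.49, 8.15 and 8.14 with ethanol (difference -0.50, adjusted p = 0.195). HMGA2, a chromatin protein of growing and transformed cells, was at 108, 106 and 91.9 with A80 against 128, 128 and 140 with ethanol (difference -0.37, adjusted p = 0.195). The groups of these 3 genes did not overlap, as the rule for the genes next in p required. The list of matrix proteases, growth factors and ERK feedback genes was chosen with earlier results of these data known, so its shares do not test it. Its 15 tested genes had a median of -0.02. An unadjusted p under 0.05 was reached downward by 6 and upward by 2, against 3.97% and 5.46% of all genes tested. Besides ADAMTS1 and HGF these 6 were the ERK feedback inhibitors SPRY4, at 14.5, 14.4 and 14.9 with A80 against 19.2, 19.4 and 18.2 with ethanol (adjusted p = 0.244), and SPRY2, and the EGF receptor ligands HBEGF and EREG. The number downward was 0 on TPM without the library factor (0.65% of all genes), and 5 or 6 with any 1 of the 6 libraries left out (2.54% to 4.53%). Other genes that the naming rule gives downward were TMA16, CHD1, BMP2K, PRMT3, LAMB1 and WDR43, with differences of -0.46 to -0.34 and adjusted p of 0.207 to 0.235.

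Of the 10 genes of smallest p upward that missed the threshold, reached a group mean of 5 scaled TPM and did not overlap between groups, RIMS3, a protein of the presynaptic active zone, was at 38.3, 27.8 and 29.5 scaled TPM with A80 against 15.2, 16.3 and 17.3 with ethanol (difference 0.92, adjusted p = 0.0643). GALNT12 was at 22.3, 21.2 and 19.6 with A80 against 11.4, 13.7 and 11.1 with ethanol (0.76, 0.0728), and IGFBP6, which binds insulin-like growth factor II, at 214, 191 and 210 with A80 against 144, 126 and 143 with ethanol (0.57, 0.0819). No overlap between groups was thus a condition for these 3. The lactate exporter SLC16A3, which hypoxia induces, was at 80.8, 64.4 and 60.1 with A80 against 45.03, 34.9 and 27.8 with ethanol (0.93, 0.155). The others were DPCD, TLE5, KHDRBS3, DDIT4, LONP1 and FAM89B, with adjusted p of 0.12 to 0.223.

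Cell cycle and other stress lists had medians near 0. Of 21 S phase genes and 20 G2 and mitosis genes tested, 0 passed. A positive difference was found in 3 and 6 of them, against 48.9% of all genes tested. The S phase mean relative to ethanol was -0.196, -0.094 and 0.024 in A80 libraries 1, 2 and 3. The median differences of the S phase and the G2 and mitosis genes were -0.08 and -0.04. The largest of these differences by p were CCNE2, a G1/S cyclin, at 11.3, 9.88 and 9.58 with A80 against 12.8, 12.6 and 13.1 with ethanol (adjusted p = 0.367), and the proliferation marker MKI67 at 69.4, 61.8 and 68.4 with A80 against 81.5, 86.0 and 79.2 with ethanol (0.364). Of 15 p53 targets, 0 had an unadjusted p under 0.05, and CDKN1A stood at 96.5, 94.9 and 101 with A80 against 103, 89.1 and 97.7 with ethanol. The 12 NRF2 antioxidant genes tested had a median of -0.01, with NQO1 at 132, 153 and 156 with A80 against 183, 172 and 171 with ethanol (adjusted p = 0.416). Of 15 immediate early genes, with a median of 0.05, FOSL2 had the lowest p at 61.0, 50.04 and 51.4 with A80 against 43.8, 41.6 and 45.1 with ethanol (adjusted p = 0.378). Of 19 mesenchymal glioma genes, with a median of 0.04, VIM was at 4100, 4000 and 4270 with A80 against 4050, 4440 and 4440 with ethanol, and the matricellular protein gene THBS1 at 9.69, 6.15 and 9.28 with A80 against 14.2, 11.4 and 12.8 with ethanol (adjusted p = 0.392). The 4 tested acyl-CoA synthetases had a median of -0.002.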

How the data were processed

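RNA from 18 libraries of U87 cells was measured, 3 per treatment, and the A80 and ethanol libraries were compared; groups and replicate numbers follow the titles. StringTie, STAR and MultiQC, with build GRCh38, are named in the submitters' processing notes; no versions, annotation or strand setting are given there. TPM was computed by the authors, per the file headers. FPKM stood beside it in the deposited tables. Coverage, the mean reads per base, was the third deposited column, and its ratio to FPKM gave depth in gigabases. TPM was summed by gene ID (60675 IDs, 58444 of them in GENCODE 29) and scaled by median of ratios (factors of 0.419 to 1.21) over 16349 genes above 0 in every library.

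The 18269 genes that reached 1 TPM in 3 or more libraries were tested. All 18 libraries were fitted on log2(scaled TPM + 1) by group with limma 3.58.1 in R 4.3.3, with a trend (12 residual and 3.39 prior degrees of freedom). Every p for a gene is limma's, two-sided, Benjamini-Hochberg adjusted over all genes tested unless called unadjusted, with 0.05 as the threshold. The fit was tested on simulated data. No library pair held identical values. TPM holds no counts, so no count model was used, and depth limits genes near 1 TPM most.

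The rule for named genes took all genes past the threshold, the 10 next of smallest unadjusted p in each direction (spanning at least 300 bases, with a group mean of at least 5 scaled TPM and no overlap between groups), the 3 of smallest p per list, the RXR, RAR and LXR genes, and the 10 largest increases and decreases past 0.05 with the title number as a term. That last set met the same conditions of span, level and no overlap. List members outside the rule, among them ALDH1A3, FASN, CPT1A, ID2, ID3, FAM20B, CYP26A1, PDK4, CDKN1A, VIM, MT-CO1 and MT-ATP6, neighbouring genes and genes called between rexinoids were chosen after their values were seen. Some genes that the rule gives are not reported here. The comparison, the 23 pathway lists, the 6 marker lists and the rules were chosen with earlier results of these data known. Alternatives varied the pseudocount, filter, scaling, trend, libraries and replicate term. Promoter sequences are RefSeq's (GRCh38.p14), matched by symbol for 7 of 8 genes.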

Additional observations from a re-analysis of the deposited data

How the results depend on the processing

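With pseudocounts of 0.1 and 5, a filter of 5 TPM and scaling by every gene above 0 (added after seeing the data), the number of genes higher with A80 was 8, 8, 10 and 9, and 8 of the 8 were among them. With no trend it was 6, without ECH1 (adjusted p = 0.0866) and ID1 (0.099). No alternative turned the direction of any of the 8. The number was 0 on TPM as deposited and in the 6 libraries alone, 3 on TPM without ribosomal RNA, 2 without the 3 libraries rich in it, and 2 to 6 with 1 library left out. The median of all genes was 0.066 on TPM as deposited and -0.122 on TPM without ribosomal RNA, against -0.004. The number lower was 4 with no filter (RTP3, RNA5SP479, CYCSP6 and RFPL4AP7, all under 0.5 scaled TPM on average), 1 with no trend (SNORA70G), and 0 to 1 with 1 library left out (ADAMTS1 without A80 replicate 3, adjusted p = 0.0475). For A80 against A41 it was 1 on TPM as deposited, 6 without the 3 libraries and 4 to 10 with 1 library left out, against 11. For A98 it was 0 with a pseudocount of 0.1, on TPM as deposited and without the 3 libraries. For bexarotene it was 1 without the 3 libraries (MIR34AHG, a long non-coding RNA, difference 1.68, adjusted p = 0.0237). The cause of these differences was not tested.

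Title numbers are shared between groups, but the deviations of same-numbered A80 and ethanol libraries correlated at 0.007, 0.042 and 0.090. The numbers were therefore not taken as pairs in the main fit, a choice that does not show the libraries to be independent. The like correlations with A34 (0.155, 0.006 and 0.126), A41 (0.110, 0.020 and 0.128), A98 (0.107, 0.013 and 0.081) and bexarotene (0.075, -0.024 and 0.105) were not all over 0.1 in any group. Among the ethanol libraries, A80 libraries 2 and 3 correlated best with their own number and A80 library 1 with ethanol library 2. Among the libraries of each other rexinoid, A80 libraries 1 and 3 correlated best with their own number. A80 library 2 did so for A41 and A98, but not for bexarotene and A34. The correlation of A80 library 1 with library 3 of each other group was negative, from -0.172 with A34 to -0.057 with A98. Any spread shared by same-numbered libraries stays in the spread that limma used in the main fit. With the title number as a replicate block, 114 genes were higher and 3 lower (ADAMTS1, HGF and FAM111B), 31 list genes passed against 7 (11 of them on the hypoxia and glycolysis list, with NDRG1 at an adjusted p of 0.00388), and 23 genes differed from A41 and 2 from A98 (SNORA70G and S100A2). With the number in the file names as the block, 51 were higher, 18 differed from A41 and 0 from A98. Depth, at 1.31 to 3.89 gigabases, limits genes near 1 TPM most.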

Other observations

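Some genes with large differences between A80 and ethanol did not pass the threshold and varied several fold among the A80 libraries. DEPP1, a stress-induced regulator of autophagy, was at 142, 38.2 and 21.6 scaled TPM with A80, against 4.10, 6.67 and 2.20 with ethanol (difference 3.33 on the log2 scale, limma adjusted p = 0.261). IGFBP3, which binds insulin-like growth factors, was at 565, 156 and 123 with A80 against 60.9, 54.3 and 29.96 with ethanol (2.23, adjusted p = 0.398). F3, tissue factor, was at 314, 125 and 50.3 with A80 against 36.9, 34.5 and 28.2 with ethanol (1.90, adjusted p = 0.434). ZP1 and SPAG4 also varied among the A80 libraries, with 15.4, 7.70 and 4.26 with A80 against 2.37, 2.05 and 1.65 with ethanol for ZP1 and 56.0, 22.8 and 21.6 with A80 against 14.2, 10.8 and 7.52 with ethanol for SPAG4. In all 5 genes each A80 library was above each ethanol library, which was a condition of their choice, and A80 library 1 was the highest. A34 library 1 stood at 131 for DEPP1, 583 for IGFBP3 and 325 for F3. These genes were chosen by their change when the title number was a term of the fit.

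FABP7, a fatty acid binding protein of radial glia and glioma, was listed at 15.01, 16.8 and 19.7 scaled TPM with A80, and at 23.7, 0 and 0 with ethanol. In each of the bexarotene, A34, A41 and A98 groups too, at least 1 library was listed at 0 and at least 1 stood between 11.9 and 17. An exact 0 in tables without counts can be a failed estimate, so no change is read from it. It was singled out after its values were seen.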
